A study of Mus musculus with 12 samples.

Results

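The interaction of mouse strain and astragaloside IV (ASIV), a triterpenoid saponin from Astragalus root, was measured gene by gene in the medial prefrontal cortex (mPFC). For each gene the ASIV difference in BTBR mice was set against the ASIV difference in C57 mice, as (BTBR ASIV minus BTBR vehicle) minus (C57 ASIV minus C57 vehicle), on the scale of log2(FPKM + 1). FPKM, fragments per kilobase at a common depth, corrects for the length of a gene and for library depth. Of 17283 genes in the deposited table, 13586 had at least 1 FPKM in 3 or more of the 12 libraries and were tested. A positive interaction value means that the ASIV difference lay higher in BTBR than in C57, and is called "higher" below. A negative value is called "lower".

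Each of the 4 groups held 3 libraries of total RNA. C57 vehicle came from C57 mice, labelled wild type, that were injected with the DMSO solvent control, and C57 ASIV from C57 mice injected with the compound. BTBR vehicle and BTBR ASIV came from BTBR mice, an inbred strain named in the series as a model of autism, with the same 2 injections. All injections were intraperitoneal and went on for 7 days. The sources used here do not give age, sex or dose, nor whether the 3 parallel samples of a group came from separate animals. The p-values then measure only the spread between these samples.

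The series asks whether ASIV improves neurotransmission in BTBR mice. An interaction asks whether a compound acts alike in 2 genetic backgrounds, and it can equally be read as the change of the strain difference between vehicle and ASIV. Its title names oxidative phosphorylation (OXPHOS) and neurotransmission. The respiratory chain is built from a few core subunits encoded by the mitochondrial genome and many more encoded in the nucleus. Fast transmission in cortex rests on glutamate from excitatory neurons and on GABA from interneurons, and calcium/calmodulin-dependent kinase II (CaMKII), which CAMK2N1 and CAMK2N2 inhibit, acts behind glutamate receptors.

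Depth ran from 16166327 to 18660038 fragments per library, and correlations between replicates from 0.971 to 0.992. On the first principal component, which held 54% of the variance, the BTBR vehicle libraries stood apart at 36.9 to 47.8, with BTBR ASIV at -4.13 to 2.25 and C57 at -23.7 to -13.8. The mean variance of a gene between replicates was largest in BTBR vehicle, at 0.0642, with 0.05 in BTBR ASIV, 0.0376 in C57 ASIV and 0.0226 in C57 vehicle. The excitatory neuron markers summed to 388.7 to 603.1 FPKM over the 12 libraries, so RNA of this list was present in each. The sum does not show the level of each marker. Markers of striatal neurons, which lie next to this region, varied widely within every group, between 74.8 and 505.3 FPKM over all libraries.

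The interaction was called, at an adjusted p under 0.05 in limma, for 1939 genes, 14.3% of those tested. Of these, 939 were higher (6.91%) and 1000 lower (7.36%). At least 2-fold, 347 genes were called (2.55%), of which 241 were higher and 106 lower. At an unadjusted p under 0.05 there were 4031 genes, where 679 would be counted if no gene differed. For 1839 of the called genes, all 9 differences between a BTBR ASIV and a BTBR vehicle library lay beyond all 9 differences between a C57 ASIV and a C57 vehicle library. Over all genes tested that was so for 20% (9.56% higher, 10.5% lower). Without 1 library the number of calls was 1166 to 2178, and it was over 1.5 times smaller without C57 vehicle 1 (1248), 2 (1166) or 3 (1255) or C57 ASIV 1 (1218).

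The called genes had nearly all of their ASIV difference in BTBR. In those called higher, the median ASIV difference was 0.65 in BTBR and -0.09 in C57. In those called lower, it was -0.59 in BTBR and 0.08 in C57. The absolute difference was larger in BTBR for 1904 called genes and larger in C57 for 35. In 1753 called genes (90.4%) the C57 difference was under 0.25 in size. Small C57 differences were also usual over all genes tested, with quartiles of -0.08 and 0.08, against -0.24 and 0.22 in BTBR. The shares over all genes for these counts were not computed. The 2 differences had opposite signs in 1570 called genes (81.0%), against 53.0% of all genes tested. This share is raised by the contrast itself, which favours opposite signs.

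Taken alone, the ASIV difference in BTBR was called for 29.1% of the genes tested (13.7% higher and 15.4% lower). That in C57 was called for 0 by limma and by voom. At an unadjusted p under 0.05 in limma there were 417 genes in C57, where 679 would be counted if no gene differed. The limma tests in BTBR and in C57 used the same spread, pooled over all groups. The mean variance between replicates was smaller in C57 (0.0226 in vehicle, 0.0376 in ASIV) than in BTBR (0.0642 and 0.05). On average the pooled spread was thus too wide for C57 and too narrow for BTBR. These counts do not compare the strains at equal power, and 0 calls do not show that C57 lacked an ASIV difference. Passing the threshold in BTBR alone does not by itself place a gene in the counts here, which rest on the test of the difference between the strains.

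**Figure D1:**
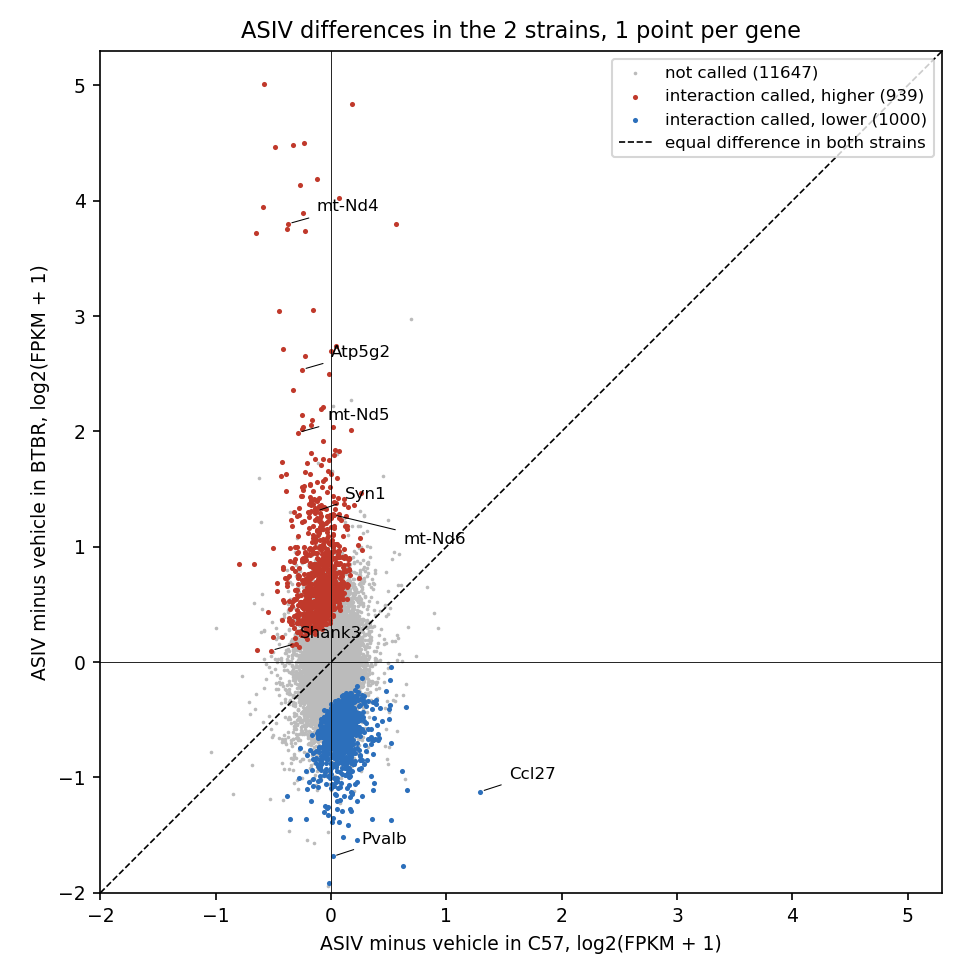
Each point is 1 of 13586 genes, with its ASIV minus vehicle difference in C57 on the x axis and in BTBR on the y axis, both in log2(FPKM + 1). Red points (939) are called higher and blue points (1000) lower for the interaction, grey points are not called, and the dashed line marks equal differences. The called genes spread along the BTBR axis, and the mitochondrial mRNA mt-Nd4 stands at -0.37 in C57 and 3.80 in BTBR.

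Read the other way, the same contrast gives the change of the strain difference. In genes called higher, the median difference of BTBR from C57 was -0.75 under vehicle and -0.02 under ASIV. In genes called lower it was 0.67 under vehicle and -0.0036 under ASIV. These values share their libraries with the interaction and are set beside it as a description. The strain difference was called for 43.1% of genes under vehicle (BTBR above C57 in 22.3%, below it in 20.8%) and for 2.53% under ASIV.

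For every gene, the group mean farthest from the mean of the other 3 groups was found. Among the called genes it was BTBR vehicle in 1809 (93.3%), BTBR ASIV in 95 (4.90%), C57 vehicle in 25 (1.29%) and C57 ASIV in 10 (0.516%). Among all genes tested the shares were 61.9, 16.3, 9.57 and 12.3%. In most called genes BTBR vehicle was thus the group farthest from the mean of the other 3. The measure does not show how near those 3 groups lay to each other. It uses the same group means as the contrast and is given as a description.

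**Figure D2:**
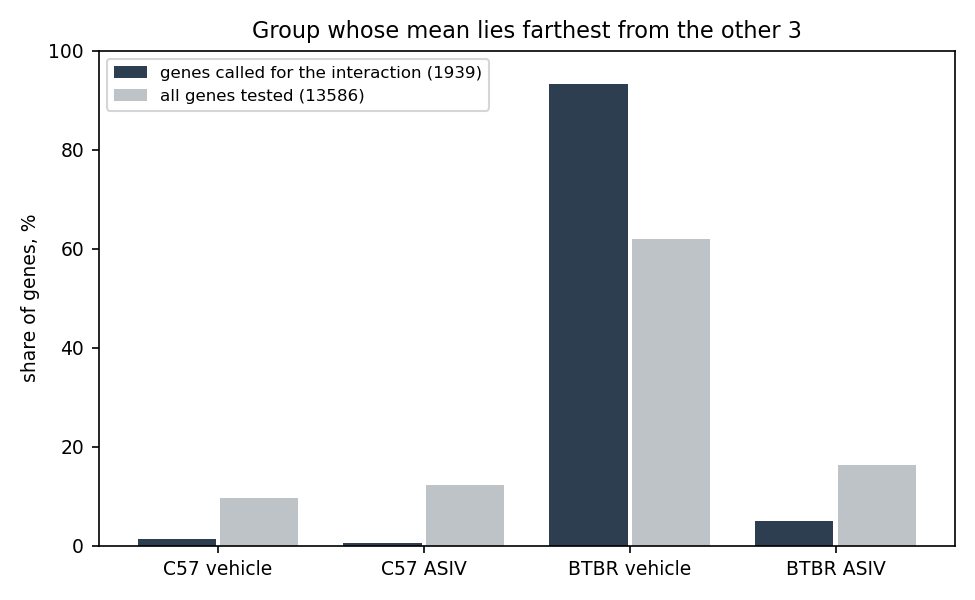
Bars give the share of genes, in percent, whose mean in the named group lies farthest from the mean of the other 3 groups, for the 1939 called genes (dark) and for all 13586 genes tested (grey). BTBR vehicle is the farthest group in 93.3% of the called genes and in 61.9% of all genes.

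RNAs of the mitochondrial genome had the highest interaction values. All 13 mitochondrial mRNAs were called higher, with a median of 3.96 and a range of 1.26 to 4.65, where the median over all genes was -0.0070. Without 1 library, 11 or 12 of them were called. The interaction of mt-Nd4 was 4.15 with the fragments of its nuclear copy Gm28439 added, and that of mt-Atp6 4.76 with Gm10925. Of the 27 genes of the mitochondrial genome that were tested, 23 were called higher and 0 lower (85.2%), and of 12 transfer RNAs, 9 were called higher. Over all genes tested, 6.91% were called higher and 7.36% lower. Short transfer RNAs lie beside the mRNAs, and their counts may not be separate from those of their neighbours.

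mt-Nd4 (chrM:10167-11544) encodes a membrane subunit of complex I. It stood at 2281, 2106 and 2199 FPKM in C57 mice given vehicle, 977, 2012 and 2465 in C57 mice given ASIV, 98.8, 66.7 and 85.1 in BTBR mice given vehicle and 1222, 1080.1 and 1186 in BTBR mice given ASIV. All 3 BTBR vehicle libraries were far below the others, the BTBR ASIV libraries lay within the spread of C57 ASIV, and the first C57 ASIV library was below the rest of the C57 libraries. The ASIV difference was 3.80 in BTBR and -0.37 in C57, and the interaction was 4.17 ± 0.38 (SE, limma, adjusted p = 0.000299).

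mt-Nd2, also of complex I, had the smallest p of this list, with an interaction of 4.14 ± 0.31 (adjusted p = 5.44e-05). mt-Cytb, which encodes cytochrome b in complex III, had 6659.8 ± 373 FPKM in C57 vehicle, 5812 ± 1683 in C57 ASIV, 313 ± 137 in the vehicle group of BTBR and 4388 ± 205 in BTBR ASIV (SD, n = 3) and an interaction of 4.13 ± 0.38. The highest value was that of mt-Atp6, a proton channel subunit of ATP synthase, at 4.65 ± 0.76, with only 1.38 to 4.95 FPKM in BTBR vehicle. The core subunits of complex IV ran from 2.51 (mt-Co2) through 2.88 (mt-Co1) to 4.37 (mt-Co3).

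The lowest value in the list was that of mt-Nd6 (chrM:13552-14070), the mRNA encoded on the other strand. It stood at 2705, 2335 and 2889.6 FPKM in C57 mice given vehicle, 2710.4, 2782 and 2494 in C57 mice given ASIV, 1482, 924 and 917 in BTBR mice given vehicle and 2427, 2438 and 3038 in BTBR mice given ASIV. The BTBR vehicle libraries were again below all 9 others, while the 3 other groups overlapped. The interaction was 1.26 ± 0.25 (adjusted p = 0.00715). mt-Nd5 lay between, at 2.28 ± 0.21. The strand of counting is not given, so reads of mt-Nd6 and of its neighbours on the other strand may not be told apart.

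Of the ribosomal RNAs of the mitochondrial genome, mt-Rnr1 was called at 1.15 ± 0.32 (adjusted p = 0.0348), and the call was lost without any of 7 libraries (each C57 vehicle library, C57 ASIV 1 and 2, and BTBR ASIV 2 and 3). It was also lost under quantile normalization, at 0.59 (adjusted p = 0.359). mt-Rnr2 stood at 0.66 ± 0.29 and was not called. Of 24 tested nuclear genes that serve mitochondrial transcription and RNA stability, 2 were called (8.33%, against 14.3% of all genes), both lower. They were Lrpprc, which stabilises mitochondrial mRNAs, at -0.74 ± 0.15, and Tfam, which packs and transcribes mitochondrial DNA, at -0.58 ± 0.17. Under scaling without mitochondrial genes 1 member was higher and 1 lower. The call for Tfam was lost under scaling without mitochondrial genes and in 8 of 12 fits that leave out 1 library, with an adjusted p of 0.0162 to 0.0989 over the alternatives.

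Nuclear genes of the respiratory chain were called in both directions. Of 36 subunits of complex I, 9 were higher and 7 lower, with a median of -0.04. Of 14 subunits of complexes II and III, 3 were higher and 6 lower (median -0.29). Of 12 of complex IV, 3 were higher and 3 lower (0.26), and of 16 of ATP synthase, 2 were higher and 6 lower (-0.32). These shares, 44.4 to 64.3% called, stand beside 14.3% over all genes and 22.5% in the bin of nuclear protein-coding genes with the highest FPKM, when these were split into 5 equal bins. Without 1 library, 5 to 12 complex I genes were higher and 3 to 8 lower, and 1 to 2 ATP synthase genes were higher and 6 lower. The ranges were 2 to 3 higher and 3 to 5 lower for complexes II and III, and 3 to 5 higher and 0 to 3 lower for complex IV.

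ATP synthase held the extremes. Atp5g2 (chr15:102662864-102672352), one of 3 genes for the ring subunit c, stood at 34.6, 34.4 and 30.8 FPKM in C57 mice given vehicle, 19.98, 31.1 and 34.3 in C57 mice given ASIV, 4.72, 1.99 and 3.43 in BTBR mice given vehicle and 25.2, 22.6 and 22.98 in BTBR mice given ASIV. The BTBR vehicle libraries lay below all others, and BTBR ASIV was within the range of C57 ASIV. The interaction was 2.79 ± 0.31 (adjusted p = 0.000691), the highest of any nuclear protein-coding gene named here on this scale. With a pseudocount of 0.1 it was 3.11, below the 4.07 of Snrpf. Atp5g3, which encodes the same protein in its mature form, was lower, at -0.80 ± 0.16 (adjusted p = 0.00821).

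Atp5h (chr11:115415689-115419962), a stalk subunit, stood at 83.7, 81.8 and 82.9 FPKM in C57 mice given vehicle, 84.5, 79.7 and 94.02 in C57 mice given ASIV, 179.7, 217 and 176 in BTBR mice given vehicle and 85.7, 98.2 and 93.2 in BTBR mice given ASIV. The BTBR vehicle libraries were above all 9 others, and C57 ASIV overlapped with both C57 vehicle and BTBR ASIV. The interaction was -1.09 ± 0.15 (adjusted p = 0.00139), and -1.14 when fragments of its copy Gm10250 were added. Atp5e, the epsilon subunit, was at -1.24 ± 0.18.

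In complex I, Ndufa1 (1.15 ± 0.20), Ndufb4 (0.95 ± 0.17) and Ndufa10 (0.74 ± 0.14) were higher and Ndufb7 (-0.67 ± 0.12) lower, and all 4 are accessory subunits. Of the succinate dehydrogenase subunits of complex II, Sdhb (-0.71 ± 0.16) and Sdhc (-0.75 ± 0.17) were lower. Of complex III, Uqcrq (1.35 ± 0.20) and Uqcr11 (1.00 ± 0.18) were higher. In complex IV, Cox7a2 (1.78 ± 0.26), Cox8a (1.18 ± 0.24) and Cox5b (0.90 ± 0.20) were higher and Cox6a1 (-0.81 ± 0.19) lower, the last at -1.28 under quantile normalization and no longer called without C57 vehicle 2 (adjusted p of 0.000865 to 0.0514 over the alternatives).

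**Figure D3:**
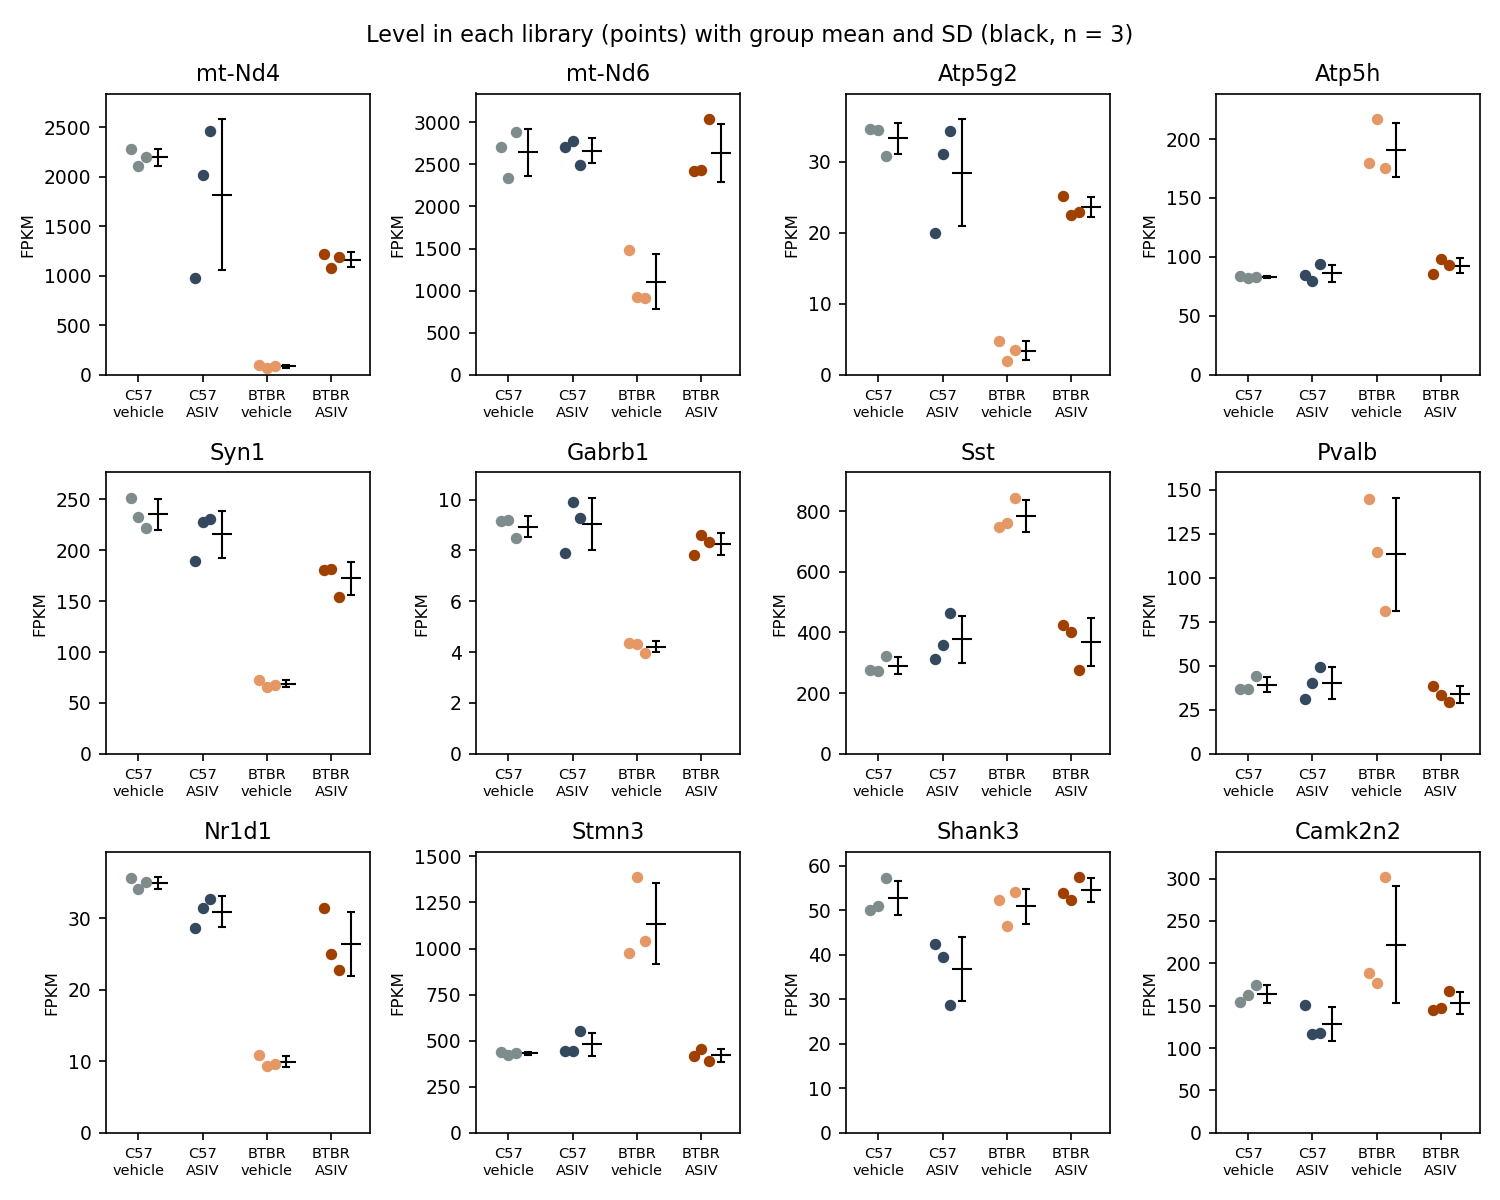
FPKM of 12 genes in each of the 12 libraries (points, 3 per group) with the group mean and SD in black, 1 panel per gene with its own axis from 0. In mt-Nd4, mt-Nd6, Atp5g2, Syn1, Gabrb1 and Nr1d1 the BTBR vehicle libraries are lowest, in Atp5h, Sst, Pvalb and Stmn3 they are highest, in Shank3 C57 ASIV is lowest, and in Camk2n2 the third BTBR vehicle library stands highest.

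The scaling of the libraries bears on these shares. Where each library was rescaled to its FPKM without the mitochondrial genes, 1832 genes were called, 1261 higher and 571 lower, so that 68.8% of calls were higher where 48.4% were so before. Of the 1939 genes called before, 1510 were also called under this scaling. The median over all genes then moved to 0.09. Under that scaling complex I had 14 higher and 6 lower, complexes II and III 3 and 3, complex IV 5 and 1, and ATP synthase 2 and 6. The list medians of complex I (0.07), mitochondrial RNA factors (0.06), CaMKII genes (0.07), the vacuolar proton pump (0.07) and immediate early genes (0.10) were then above 0 instead of below. All 1939 called genes kept their sign under every scaling, filter and left-out library in which they were tested.

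Calls in the synaptic lists were few, and most were higher. Of 37 genes of vesicle release, 4 were higher and 2 lower (median 0.24), and of 20 genes of GABA signalling 4 were higher and 0 lower (0.28). Of 23 postsynaptic scaffold genes 5 were higher and 0 lower (0.28). Of 29 genes of glutamate receptors and transporters 1 was higher and 0 lower (0.04), and of 28 tested monoamine and acetylcholine receptors 1 was higher and 0 lower (0.0049). Without 1 library, 3 to 5 vesicle genes, 3 to 5 GABA genes and 2 to 5 scaffold genes were higher. The share called was 16.2% for vesicle release, near the 14.3% of all genes tested. It was 20% for GABA signalling and 21.7% for scaffold genes. For glutamate genes (3.45%) and for monoamine and acetylcholine receptors (3.57%) it was below that of all genes. The background of 6.91% higher and 7.36% lower holds for each of these counts.

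Syn1 (chrX:20860511-20921004) encodes synapsin I, which tethers synaptic vesicles to the cytoskeleton. It stood at 251, 233 and 222 FPKM in C57 mice given vehicle, 189, 228 and 231 in C57 mice given ASIV, 72.7, 65.8 and 68.03 in BTBR mice given vehicle and 181, 182 and 154 in BTBR mice given ASIV. BTBR vehicle was below all other libraries, and BTBR ASIV lay between them and the C57 libraries, without overlap. The interaction was 1.44 ± 0.15 (adjusted p = 0.000515), from 1.31 in BTBR and -0.13 in C57. Rab3a, the vesicle GTPase, was higher at 0.71 ± 0.15, and Napa, which helps to take apart fusion complexes, at 0.69 ± 0.14. Syp, the vesicle membrane protein synaptophysin, was lower at -0.75 ± 0.16.

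Among the GABA genes, Gabrb1, a beta subunit of the GABA-A receptor, stood at 9.16, 9.18 and 8.48 FPKM in C57 mice given vehicle, 7.92, 9.91 and 9.28 in C57 mice given ASIV, 4.36, 4.32 and 3.95 in BTBR mice given vehicle and 7.80, 8.62 and 8.35 in BTBR mice given ASIV. Levels in BTBR vehicle were below those of every other group, and the other 3 groups overlapped. The interaction was 0.82 ± 0.13 (adjusted p = 0.0027). Slc32a1, the vesicular GABA transporter, had 1.00 ± 0.20, Abat, which breaks GABA down, had 1.11 ± 0.20, and Slc6a11, a GABA uptake transporter, had 1.12 ± 0.29. Slc6a11 lost its call without C57 vehicle 2 or 3, BTBR vehicle 2 or BTBR ASIV 2 (adjusted p of 0.0157 to 0.0628 over the alternatives).

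Of the glutamate genes Grm5, a metabotropic receptor, was called at 0.64 ± 0.20 (adjusted p = 0.0465), and lost the call in 10 of 12 fits that leave out a library. Chrm1, the muscarinic M1 receptor, was called at 0.55 ± 0.16 (adjusted p = 0.0333) and lost it in 6 of 12. Of 30 voltage-gated channel genes, Hcn2, a pacemaker channel, was higher at 1.08 ± 0.19 and Kcnc2, a potassium channel of fast-spiking interneurons, lower at -0.48 ± 0.11, a call lost under scaling without mitochondrial genes. The other 28 were not called, and the 6.67% of channel genes called is below the 14.3% of all genes tested.

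For the scaffold genes both parts of the contrast are given. Dlg2, which anchors NMDA receptors, had 0.66 in BTBR, -0.10 in C57 and an interaction of 0.76 ± 0.14. Shank3, a scaffold of the postsynaptic density, stood at 49.99, 51.1 and 57.3 FPKM in C57 mice given vehicle, 42.4, 39.5 and 28.8 in C57 mice given ASIV, 52.2, 46.4 and 54.05 in BTBR mice given vehicle and 53.8, 52.3 and 57.5 in BTBR mice given ASIV. Here C57 ASIV was below all other libraries, and the 2 BTBR groups overlapped. The ASIV difference was 0.10 in BTBR and -0.52 in C57, and the interaction 0.62 ± 0.18 (adjusted p = 0.0405). Its call was lost in 9 of 12 fits that leave out a library, with an adjusted p of 0.0285 to 0.0996 over the alternatives. Dlgap3, which binds SHANK proteins, had 0.22, -0.43 and 0.64 ± 0.18 in the same order, and lost its call in 8 of 12.

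Neuropeptide genes went both ways. Sst (chr16:23889573-23890958), the somatostatin gene, stood at 276, 272 and 323 FPKM in C57 mice given vehicle, 313, 357 and 463 in C57 mice given ASIV, 746, 760.1 and 843 in BTBR mice given vehicle and 426, 401 and 277 in BTBR mice given ASIV. The BTBR vehicle libraries were above all 9 others, and the BTBR ASIV libraries overlapped with C57 ASIV. The interaction was -1.47 ± 0.24 (adjusted p = 0.00353). Cck, cholecystokinin, was lower at -1.15 ± 0.30, a call lost without C57 vehicle 1 or 2 or C57 ASIV 1. Npy, neuropeptide Y, was higher at 1.34 ± 0.31, with 114 ± 12.2 FPKM in C57 vehicle, 109 ± 28.6 in C57 ASIV, 37.6 ± 11.8 in the vehicle group of BTBR and 88.3 ± 9.11 in BTBR ASIV (SD, n = 3). Of 14 neuropeptide genes 1 was higher and 2 lower (21.4% called, against 14.3% of all genes tested).

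The series title names CAMK2N2. Camk2n2 (chr16:20619215-20621287), an inhibitor of CaMKII, stood at 154, 162 and 174 FPKM in C57 mice given vehicle, 151, 116 and 117 in C57 mice given ASIV, 188, 176 and 302 in BTBR mice given vehicle and 144, 148 and 168 in BTBR mice given ASIV. The BTBR vehicle libraries were above the 9 others, the second of them narrowly and the third by far, and BTBR ASIV overlapped with both C57 groups. The ASIV difference was -0.49 in BTBR and -0.36 in C57, and the interaction of -0.14 ± 0.25 (SE) was not called (adjusted p = 0.763). Without the third BTBR vehicle library the interaction was 0.11.

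Of the 6 genes for CaMKII subunits and inhibitors, 1 was called (16.7%, near the 14.3% of all genes tested). Camk2a, the alpha subunit of excitatory neurons, stood at 602, 577 and 656 FPKM in C57 mice given vehicle, 484, 502 and 399 in C57 mice given ASIV, 407, 341 and 415 in BTBR mice given vehicle and 531, 553 and 583 in BTBR mice given ASIV. C57 ASIV was below C57 vehicle and BTBR ASIV was above BTBR vehicle in every library. The interaction was 0.93 ± 0.16 (adjusted p = 0.00457), from 0.52 in BTBR and -0.41 in C57. Camk2b, the beta subunit, stood at 0.02 ± 0.14 (adjusted p = 0.942) and changed sign under 3 alternatives. Camk2n1, the other inhibitor, stood at -0.33 ± 0.20 (adjusted p = 0.295).

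**Figure D4:**
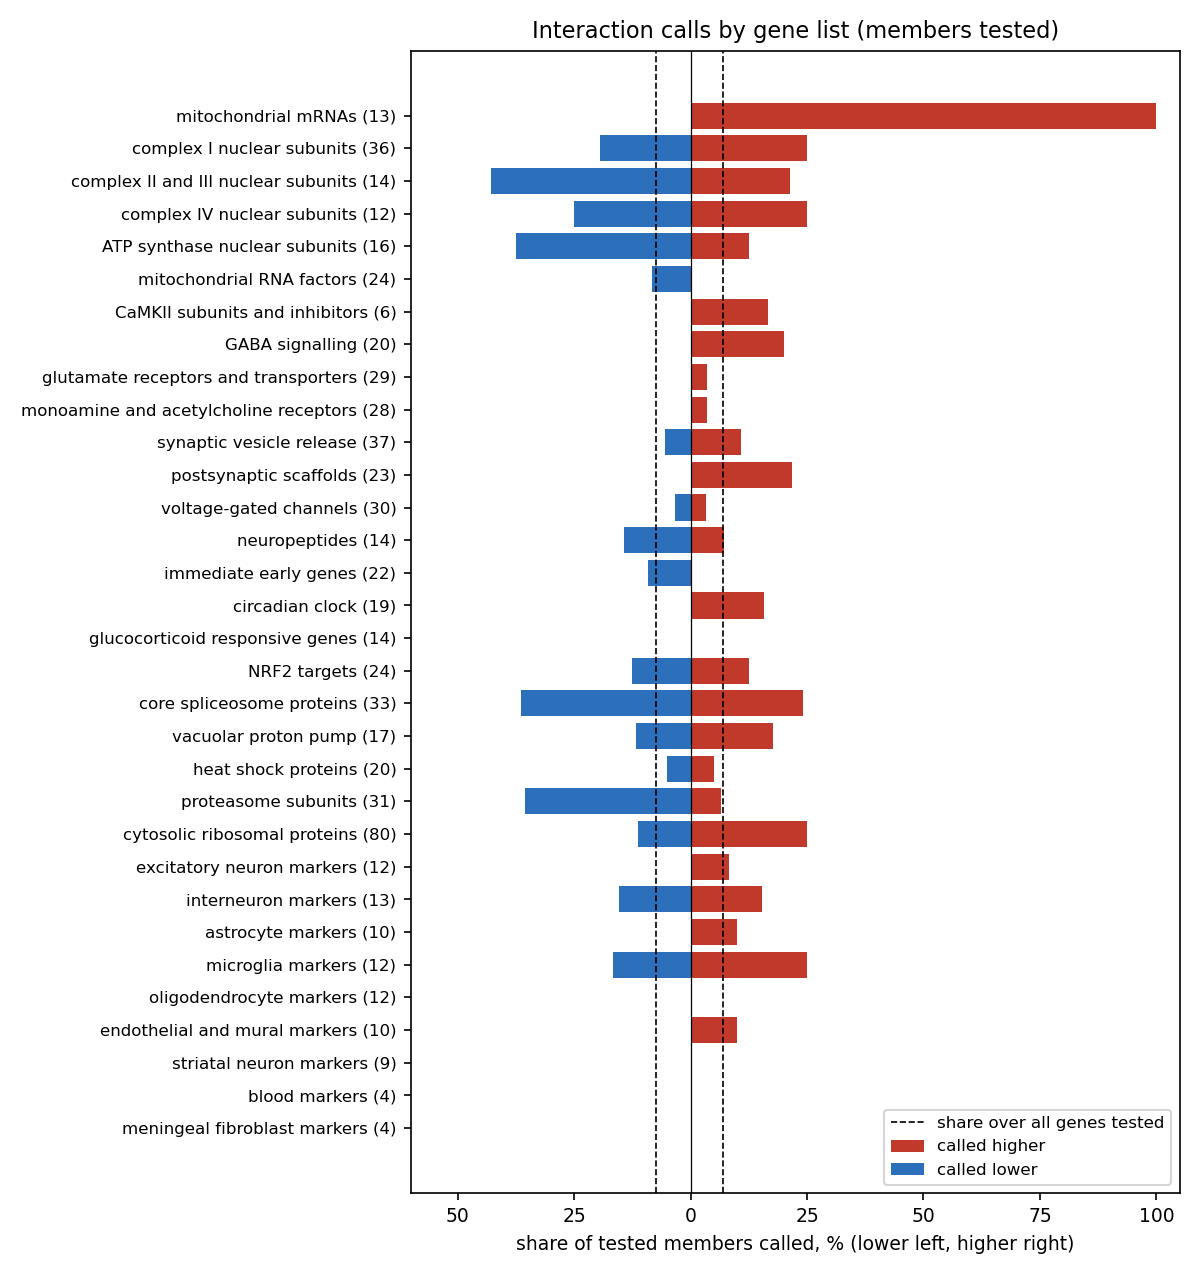
For each gene list with at least 4 tested members (number in brackets), the bar to the right gives the percent of members called higher and the bar to the left the percent called lower. Dashed lines mark the shares over all genes tested, 6.91% and 7.36%. Mitochondrial mRNAs reach 100% on the right, and core spliceosome proteins, with 8 higher and 12 lower of 33, extend on both sides.

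Genes of protein synthesis, splicing and protein breakdown had calls in both directions. Of 80 tested cytosolic ribosomal protein genes, 20 were higher and 9 lower (median 0.20). Of 33 core spliceosome genes 8 were higher and 12 lower (-0.21), and of 31 proteasome subunits 2 were higher and 11 lower (-0.30). The shares called were 36.25, 60.6 and 41.9% in this order, against 14.3% of all genes tested (6.91% higher, 7.36% lower). With the scaling that leaves out mitochondrial genes, the counts were 24 and 3, 8 and 9, and 3 and 9 in the same order. Without 1 library, 13 to 22 ribosomal protein genes were higher and 3 to 11 lower, 6 to 7 and 7 to 11 spliceosome genes, and 1 to 3 and 7 to 14 proteasome genes. Calls were more frequent among short and highly expressed genes, as given below, and the lists were not adjusted for either.

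Rpl27, of the large ribosomal subunit, stood at 55.4, 52.9 and 54.1 FPKM in C57 mice given vehicle, 36.1, 51.5 and 57.5 in C57 mice given ASIV, 17.9, 12.9 and 16.5 in BTBR mice given vehicle and 50.9, 44.9 and 46.95 in BTBR mice given ASIV. The BTBR vehicle libraries lay below all others. Its interaction was 1.73 ± 0.22 (adjusted p = 0.00108). Rpl31, of the same subunit, was also higher at 1.59 ± 0.24. Ribosomal proteins have many processed copies in the genome. With the fragments of sequence partners added, the values were 1.72 for Rpl27 and 1.63 for Rpl31.

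The ring of Sm proteins that surrounds spliceosomal RNAs was split. Snrpf stood at 7.97, 7.98 and 6.93 FPKM in C57 mice given vehicle, 4.85, 7.86 and 7.82 in C57 mice given ASIV, 0.193, 0.136 and 0.216 in BTBR mice given vehicle and 3.53, 5.97 and 3.08 in BTBR mice given ASIV. BTBR vehicle lay near 0 and below all others, and the interaction was 2.26 ± 0.27 (adjusted p = 0.00081). At such low levels the value depends on the pseudocount, and it was 4.07 with a pseudocount of 0.1 and 4.45 by voom. Snrpe stood at 9.34, 5.90 and 4.48 FPKM in C57 mice given vehicle, 11.3, 6.93 and 10.8 in C57 mice given ASIV, 23.04, 28.3 and 18.9 in BTBR mice given vehicle and 8.70, 6.32 and 10.5 in BTBR mice given ASIV, here with BTBR vehicle above all others, and the interaction was -1.88 ± 0.36 (adjusted p = 0.00677). Added to its copy Snrpert, Snrpe was at -1.65. Snrpd1 was lower too (-0.95 ± 0.18), while Snrpa, of the U1 particle, was higher (1.41 ± 0.24). Phf5a, of the SF3B complex, was lower at -1.39 ± 0.16, and Lsm8, of the U6 particle, at -0.90 ± 0.16.

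Among proteasome subunits, Psmb2 of the core was higher (1.53 ± 0.22), and Psmd13 (-1.03 ± 0.15), Psmd14 (-0.99 ± 0.18) and Psmc4 (-0.72 ± 0.15) of the regulatory cap were lower. Sem1, a small cap subunit outside the list, was at -1.33 ± 0.18. The vacuolar proton pump acidifies lysosomes and synaptic vesicles. Of its 17 genes, 3 were higher and 2 lower (median -0.05, 29.4% called, against 14.3% of all genes tested). They included Atp6v0c (1.53 ± 0.31; 1.80 with its copy Atp6v0c-ps2), Atp6v1g2 (1.29 ± 0.23), Atp6v0e (0.95 ± 0.24, not called without C57 vehicle 2 or 3) and Atp6v1e1 (-0.64 ± 0.15). Of 20 heat shock genes 1 was higher, the cochaperone Dnajb1 (0.87 ± 0.21), and 1 lower, Hsp90b1 of the endoplasmic reticulum (-0.71 ± 0.18, not called without C57 vehicle 1 or 3). The 10% of heat shock genes called is below the 14.3% of all genes tested. Heat shock genes called lower numbered up to 5 under other scalings, 3 by voom and 0 to 4 without 1 library.

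Of 19 circadian clock genes, 3 were higher and 0 lower (median 0.12), a share of 15.8% that is near the 14.3% of all genes tested. Nr1d1 (chr11:98767932-98775333), the repressor REV-ERB alpha, stood at 35.7, 34.04 and 35.1 FPKM in C57 mice given vehicle, 28.6, 31.5 and 32.8 in C57 mice given ASIV, 10.9, 9.38 and 9.63 in BTBR mice given vehicle and 31.4, 24.97 and 22.8 in BTBR mice given ASIV. BTBR vehicle was below all other libraries, and the interaction was 1.48 ± 0.16 (adjusted p = 0.000525). Nr1d1 overlaps Thra on the other strand, and without strand their reads cannot be told apart. The other called members were Npas2, a partner of BMAL1, at 0.83 ± 0.16, and Hlf, an output factor, at 0.79 ± 0.16. The sources used here do not give the hour of sampling.

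Immediate early genes, which neurons switch on with activity, had 0 members higher and 2 lower of 22 (median -0.02). This share of 9.09% is below the 14.3% of all genes, and without 1 library 0 to 1 were higher and 1 to 5 lower. Ier5 was at -1.39 ± 0.25, and Jund at -0.79 ± 0.23, a call lost in 7 of 12 fits that leave out a library. Of 14 genes that respond to glucocorticoids, 0 were called by limma, with 3 at an unadjusted p under 0.05, and 1 was called higher by voom. Under each of 4 other scalings limma called 1 or 2 higher. The smallest p there was that of Errfi1 (0.56 ± 0.18, adjusted p = 0.0515), which was called in 9 alternatives. Of 24 targets of NRF2, the regulator of antioxidant genes, 3 were higher and 3 lower (25% called, against 14.3% of all genes tested). The higher ones included G6pdx (0.74 ± 0.13) and Gstm1 (0.96 ± 0.18). The lower ones included Gsta4 (-1.10 ± 0.17) and Sqstm1 (-0.52 ± 0.13, not called without C57 vehicle 2).

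Outside these lists, the highest interactions of nuclear protein-coding genes included Chchd10, a mitochondrial protein of the intermembrane space, at 2.28 ± 0.30, Ptgds, a prostaglandin synthase, at 2.16 ± 0.47, and Praf2, a membrane trafficking protein, at 1.94 ± 0.20. Praf2 stood at 22.7, 24.7 and 24.3 FPKM in C57 mice given vehicle, 16.8, 20.4 and 24.9 in C57 mice given ASIV, 6.69, 4.33 and 4.85 in BTBR mice given vehicle and 19.4, 19.9 and 19.5 in BTBR mice given ASIV. Its BTBR vehicle libraries were below all others, and its adjusted p of 0.000515 was the lowest among the nuclear genes named, together with Syn1 and Msrb2. Srr, which makes D-serine, a coagonist of NMDA receptors, was at 1.19 ± 0.13.

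The lowest included Stmn3, a microtubule-destabilising stathmin of neurons. It stood at 440.4, 424 and 433 FPKM in C57 mice given vehicle, 443, 445 and 553 in C57 mice given ASIV, 977, 1388 and 1041 in BTBR mice given vehicle and 419, 455 and 388 in BTBR mice given ASIV. BTBR vehicle was above all other libraries, and the interaction was -1.56 ± 0.19 (adjusted p = 0.001). Msrb2, which repairs oxidised methionine in mitochondria, had the smallest p among genes called lower and stood at 12.2, 11.97 and 11.7 FPKM in C57 mice given vehicle, 12.4, 11.6 and 11.9 in C57 mice given ASIV, 26.5, 24.5 and 24.5 in BTBR mice given vehicle and 10.7, 12.1 and 11.9 in BTBR mice given ASIV. BTBR vehicle again stood apart, at about the same level in its 3 libraries, and the interaction was -1.07 ± 0.11 (adjusted p = 0.000515). Dpm3 (-1.37 ± 0.16), of mannosyl transfer in the endoplasmic reticulum, Ctxn2 (-1.43 ± 0.23), Mrfap1 (-1.27 ± 0.15) and Coprs (-0.98 ± 0.11) were also lower.

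A small number of called genes differed in direction between the strains by sizeable amounts, chosen for the larger of the smaller absolute differences. Hcn2 stood at 95.5, 104 and 103 FPKM in C57 mice given vehicle, 77.6, 70.97 and 69.8 in C57 mice given ASIV, 55.5, 38.8 and 59.01 in BTBR mice given vehicle and 81.6, 72.9 and 78.6 in BTBR mice given ASIV. C57 ASIV was below C57 vehicle in every library, and BTBR ASIV was above BTBR vehicle in every library. The differences were 0.62 in BTBR and -0.47 in C57. Shank1, a scaffold of the postsynaptic density, had 0.43 and -0.55, Phospho1, a phosphatase, 0.80 and -0.42, and Bex1, an adaptor of neurotrophin signalling, -0.62 and 0.40. Taken alone, the BTBR difference of Shank1 was not called (limma, adjusted p = 0.0815). None of the C57 differences was called on its own (limma, adjusted p = 1 for each). The interaction of Phospho1 fell from 1.22 to 0.44 when fragments of Zfp652, with which it shares sequence, were added, and was 2.11 with a pseudocount of 0.1.

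Ccl27, a chemokine placed on the unlocated scaffold JH584293.1, had the lowest interaction of all nuclear protein-coding genes named. It stood at 2.45, 1.77 and 1.79 FPKM in C57 mice given vehicle, 6.01, 3.49 and 11.5 in C57 mice given ASIV, 5.13, 2.68 and 2.48 in BTBR mice given vehicle and 2.10, 0.689 and 0.449 in BTBR mice given ASIV. The third C57 ASIV library was the highest, and within each strain the ASIV and vehicle libraries did not overlap. The differences were -1.12 in BTBR and 1.29 in C57, the interaction was -2.42 ± 0.53 (adjusted p = 0.0146), and the farthest group was C57 ASIV. Near-identical copies of this gene exist in the mouse genome, so its counts are uncertain.

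Genes whose C57 difference was the larger one were 35 of the 1939. Camta2, a calmodulin-binding transcription activator, had the smallest p and stood at 85.8, 80.2 and 87.03 FPKM in C57 mice given vehicle, 65.1, 67.6 and 67.3 in C57 mice given ASIV, 56.7, 55.2 and 65.9 in BTBR mice given vehicle and 77.4, 77.02 and 69.2 in BTBR mice given ASIV. C57 ASIV was below C57 vehicle and BTBR ASIV above BTBR vehicle, without overlap. The interaction was 0.66 ± 0.13 (adjusted p = 0.00683), from 0.33 in BTBR and -0.33 in C57. Scrt1, a repressor of neurons, was at 0.72 ± 0.16, Rasl10b, a small GTPase, at 0.61 ± 0.14, Fxyd6, a regulator of the sodium pump, at -0.71 ± 0.16, and Rnf113a2 at -0.73 ± 0.16.

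Of 13 interneuron markers 2 were higher and 2 lower (30.8% called, against 14.3% of all genes tested), with a median of 0.26. Fewer cells of a type and less RNA per cell cannot be told apart in bulk tissue. Pvalb (chr15:78191114-78206400), the calcium buffer of fast-spiking interneurons, stood at 36.8, 36.7 and 44.1 FPKM in C57 mice given vehicle, 30.9, 40.3 and 49.3 in C57 mice given ASIV, 145, 114 and 80.8 in BTBR mice given vehicle and 38.7, 33.6 and 29.1 in BTBR mice given ASIV. BTBR vehicle was above all others, and the interaction was -1.70 ± 0.29 (adjusted p = 0.00423). Dlx5, a transcription factor of the same lineage, was higher at 1.81 ± 0.39 (2.77 with a pseudocount of 0.1). The summed level of the list was 1026 to 1076 FPKM in BTBR vehicle and 466.2 to 672.8 in the other groups, and Sst alone made up 746.5 to 842.8 FPKM of it in BTBR vehicle.

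Of 12 microglial markers 3 were higher and 2 lower (41.7% called, against 14.3% of all genes tested, median 0.20). Cd68, a lysosomal protein, stood at 5.16, 5.47 and 6.36 FPKM in C57 mice given vehicle, 3.15, 4.05 and 4.64 in C57 mice given ASIV, 0.923, 0.512 and 0.984 in BTBR mice given vehicle and 3.93, 4.04 and 5.68 in BTBR mice given ASIV. BTBR vehicle was below all others, and the interaction was 2.05 ± 0.22 (adjusted p = 0.000525). P2ry12, a purinergic receptor of resting microglia, was at 1.87 ± 0.23, whereas Aif1 (-0.82 ± 0.18) and Trem2 (-0.55 ± 0.13) were lower, the latter not called under scaling without mitochondrial genes. The summed level of the 12 markers in BTBR vehicle, 253.8 to 315.8 FPKM, overlapped with that of each other group.

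Of the other markers, 1 of 10 astrocyte genes was higher (Aldoc, 0.94 ± 0.19), 1 of 10 endothelial and mural genes (Ly6c1, 1.42 ± 0.31) and 1 of 12 excitatory neuron genes (Cux1, 0.57 ± 0.17, not called in 9 of 12 fits that leave out a library). These shares of 10, 10 and 8.33% are below the 14.3% of all genes tested. In limma 0 of 12 oligodendrocyte markers, 0 of 9 striatal, 0 of 4 blood, 0 of 4 meningeal and 0 of 2 choroid plexus markers tested were called. At an unadjusted p under 0.05 there were 1, 0, 0, 1 and 0 of them, and voom called 0 in the first 4 of these lists. Under a replicate block limma called Mog (adjusted p = 0.0248), and without C57 ASIV 3 it called Col1a2 (adjusted p = 0.045). Those with the smallest p in their list were Mog of myelin (-1.09 ± 0.46), Pde10a of striatal neurons (0.75 ± 0.82), Hba-a1 of blood (0.80 ± 0.64), Col1a2 of fibroblasts (-0.64 ± 0.27) and Ttr of choroid plexus (0.31 ± 0.92). Summed levels of these lists varied within groups, such as 724.2 to 1559 FPKM of oligodendrocyte markers in BTBR vehicle. The part of these cell types in the other results was not tested.

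Among 12139 nuclear protein-coding genes, the share called rose with the level of expression and fell with length. In 5 equal bins from the lowest to the highest mean FPKM, it was 4.04, 10.6, 14.01, 19.9 and 22.5%. In 5 bins from the shortest to the longest exon length, it was 21.6, 16.5, 14.04, 11.2 and 7.78%. The median exon length was 3860 bases in genes called higher, 3426 in genes called lower and 4538 in all. Their median FPKM was 9.54, 14.7 and 6.71. In the bin of the longest genes 129 genes were higher and 60 lower, and in that of the highest FPKM 206 were higher and 340 lower.

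**Figure D5:**
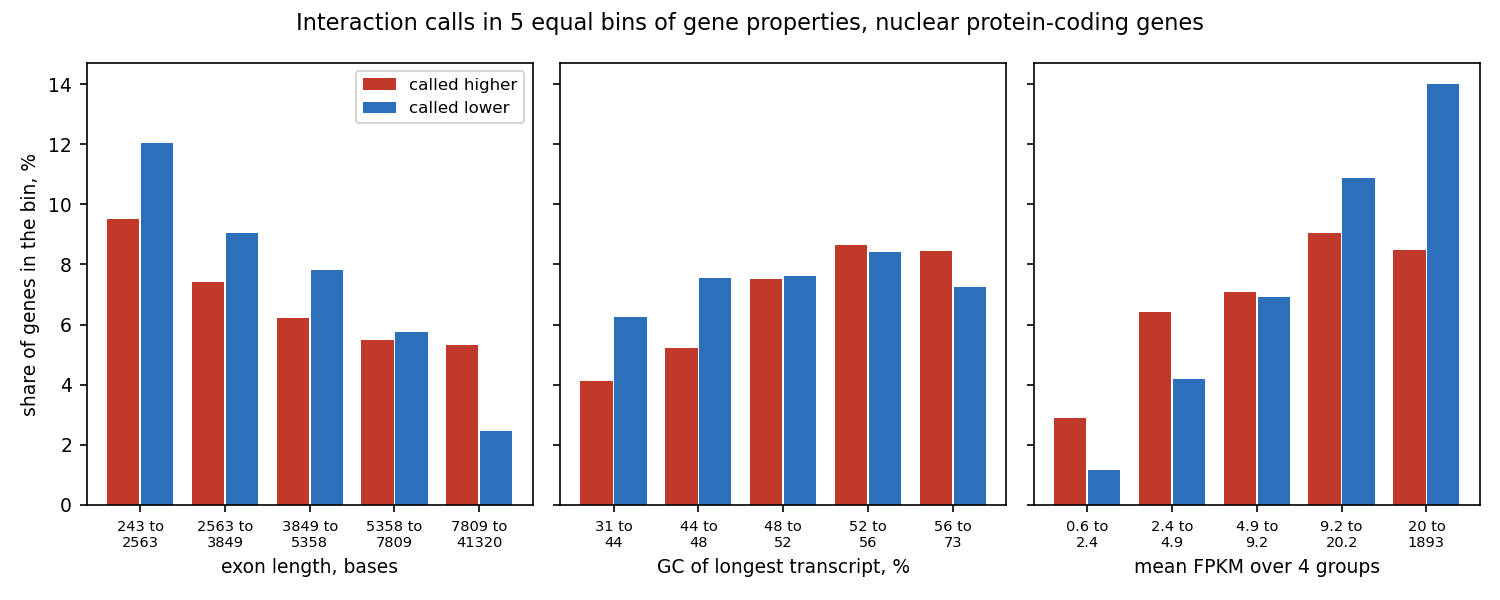
Bars give the percent of nuclear protein-coding genes called higher (red) or lower (blue) for the interaction in each of 5 equal bins of exon length in bases, of GC content of the longest transcript in percent and of mean FPKM. The shares fall with length, from 21.6% called in the bin of the shortest genes to 7.78% in that of the longest, and rise with FPKM, from 4.04% to 22.5%.

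GC content was related to the 2 parts of the contrast unequally. Across 12131 genes, Spearman's rho with GC was -0.397 for the ASIV difference in C57, -0.11 for that in BTBR and 0.0227 for the interaction. It was 0.121 for the strain difference under vehicle and 0.276 under ASIV. These are descriptions across genes, which are not independent replicates, and all genes share the same 12 libraries. In 5 bins of rising GC, 10.4, 12.8, 15.1, 17.1 and 15.7% of genes were called. The part of GC content in single calls was not tested.

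Genes that share sequence with others are given apart. Of 735 genes that shared 10 to 50% of their 50-base words with other genes, 21.9% were called, and of 147 that shared more, 17.0%, against 14.1% of 6856 that shared none. Of 501 processed pseudogenes, 54 were higher and 51 lower (20.96%). With the test run only on the 7479 genes of any class that share no such word, 962 were called (452 higher and 510 lower). With the fragments of sequence partners added for 15 of the named genes, 14 were called before and after, and Hba-a1 was not called in either.

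The window of 250 bases before the RefSeq gene start was searched on both strands for 7 motifs, with 649 genes called higher, 721 called lower and 9560 tested that matched by symbol in the RefSeq table. The ETS motif CCGGAAGT was in 5.39% of genes called higher, 10.8% of those called lower, 6.41% of those tested and 3.23% of all 27025 in the table. The cAMP response element (CRE) TGACGTCA was in 3.08, 3.88, 3.07 and 1.77%, in the same order. The E-box CACGTG was in 9.55, 9.85, 10.2 and 6.86%, the NRF1 core GCGCATGC in 6.47, 6.52, 5.12 and 2.56%, and TATAAA in 8.17, 7.91, 7.46 and 14.3%. The YY1 core AAGATGGC was in 4.01, 2.77, 2.34 and 1.83%, and the D-box of the clock, TTATGTAA or TTACGTAA, in 0.77, 0.555, 0.743 and 1.095%. The E-box, the CRE and TTACGTAA share the letters ACGT at their centre.

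The same motif stood near the start of genes with opposite interactions, as the stretches of 30 bases below show, from RefSeq on GRCm38.p6 (mm10), all on the minus strand and 5′ to 3′, with the motif in capitals. The first 5 hold the CRE and the last 3 the ETS motif, which reads ACTTCCGG where it lies on the other strand. Syn1 (chrX:20921059-20921088), Snrpa (chr7:27196366-27196395), Hlf (chr11:90390918-90390947) and Ndufa10 (chr1:92473807-92473836) were called higher and Sst (chr16:23890874-23890903) lower. Uqcr11 (chr10:80406869-80406898) was called higher, and Atp5h (chr11:115419940-115419969) and Tfam (chr10:71238073-71238102) lower.
Syn1: caaaggctgacTGACGTCActcactagccc
Snrpa: ccaggaggaaaTGACGTCAcccggccagcc
Hlf: atcggcgcgcggtgcgggcccTGACGTCAc
Ndufa10: acactcagtggTGACGTCAtggcagcgcgc
Sst: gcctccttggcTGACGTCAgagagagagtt
Uqcr11: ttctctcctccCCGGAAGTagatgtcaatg
Atp5h: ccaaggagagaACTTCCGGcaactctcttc
Tfam: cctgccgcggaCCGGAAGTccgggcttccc
Counted to the RefSeq start, the CRE of Sst starts 48 bases before the gene, that of Syn1 159 and that of Hlf 9. GENCODE M21, which gave the gene positions printed above, sets some starts farther upstream, so that the motifs of Sst, Ndufa10, Atp5h and Tfam lie inside its gene models, and those of Syn1, Snrpa, Hlf and Uqcr11 outside them. Around the match the letters differ from gene to gene, and the match itself was the same in genes with interactions of 1.44 (Syn1) and -1.47 (Sst). The window of Snrpa (chr7:27196272-27196521), which no annotated exon of the gene overlaps, is given whole to show the match in its setting. It also holds the E-box CACGTG and TATAAA, which were searched too and are left in lower case.
Snrpa: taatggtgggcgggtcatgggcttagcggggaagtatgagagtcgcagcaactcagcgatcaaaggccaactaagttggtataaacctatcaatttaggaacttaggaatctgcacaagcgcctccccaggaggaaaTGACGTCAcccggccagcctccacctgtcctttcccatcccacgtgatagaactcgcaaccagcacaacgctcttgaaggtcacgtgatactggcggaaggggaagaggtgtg
A match is a description of the letters in this window. It does not show that a factor binds there.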

How the data were processed

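RNA sequencing of the mPFC gave 12 libraries, 3 in each of 4 groups taken from the labels. The authors deposited 1 gene table in FPKM. HISAT2 2.0.5 and mm10 are named in the submitters' processing notes, while the sources used here name no counter, annotation, strand of counting or filter (not given). Of 17283 gene identifiers, 17273 matched GENCODE M21 (10 did not), which gave symbols, positions (mm10) and exon lengths. The table held 0 other columns of sample values. Multiplied by exon length, 97.6 to 98.0% of values under 50 fragments were whole within 0.02, and 95.7 to 95.8% of all values. This gave the depths, which limit the precision of low genes. Replicates differed by more than counting error.

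Values were analysed as log2(FPKM + 1). A model of 4 group means over all 12 libraries (8 residual degrees of freedom) was fitted in R 4.3.3 by lmFit, contrasts.fit and eBayes (trend and robust options) of limma 3.58.1. Benjamini-Hochberg adjustment ran over 13586 genes, and genes were called under 0.05. A fold is that of FPKM + 1, which understates the change of low genes. Log2 differences carry the SE of the model. Exon 50-base words shared between genes were counted from the GENCODE transcripts, and a partner shares at least 30% of them. Figures were drawn with matplotlib 3.10.9, and other steps used pandas 2.3.3 and numpy 2.4.6 under Python 3.11.15. The fit was tested on simulated data.

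The contrast, the 34 lists (24 of gene groups, 10 of cell type markers) and the rule for naming genes were chosen with earlier results of these data known. The rule took nuclear protein-coding genes without predicted-gene symbols. It named the 10 with the largest interaction per direction among called genes without overlap, the 5 with the smallest p per direction, the 5 per direction with the largest opposite differences, and the 5 with the smallest p where C57 differed more. It added up to 4 called members per list with the smallest p (otherwise the 1 with the smallest p), the highest and lowest mitochondrial mRNA, and Camk2n2, Camk2n1, Camk2a and Camk2b, 111 genes in all, of which 2 are not reported here. Other list members (mt-Co1, mt-Co2, mt-Co3, mt-Rnr2) were named after their values were seen, and so were the genes with printed promoter bases among those named. Of the promoter motifs, NRF1 and YY1 were shortened to core letters after longer forms had been searched. No set test was run. Alternatives were a pseudocount of 0.1, no filter or FPKM of at least 5, 4 other scalings, plain eBayes, weights per group, a replicate block, leaving out each library, voom on recovered fragments and, chosen after seeing the data, genes without shared words and sums with sequence partners.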

Additional observations from a re-analysis of the deposited data

Results flagged for a closer look

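The test of the difference between the strains itself passed for 1939 genes, and the genes below are among those of the naming rule in which the ASIV difference differed between BTBR and C57. Each value is the interaction on the scale of log2(FPKM + 1), and the median of the 13 mitochondrial mRNAs was 3.96. No group of 3 libraries was tested for an outlying sample.

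The ASIV difference was higher in BTBR than in C57 for Atp5g2 (2.79), Chchd10 (2.28), Snrpf (2.26) and Ptgds (2.16). The same held for Cd68 (2.05), Praf2 (1.94), P2ry12 (1.87) and Dlx5 (1.81). Nr1d1 (1.48), Syn1 (1.44), Phospho1 (1.22), Srr (1.19), Hcn2 (1.08), Shank1 (0.98), Scrt1 (0.72), Camta2 (0.66) and Rasl10b (0.61) followed. The ASIV difference was lower in BTBR than in C57 for Ccl27 (-2.42), Snrpe (-1.88), Pvalb (-1.70), Stmn3 (-1.56) and Sst (-1.47). It was also lower for Ctxn2 (-1.43), Phf5a (-1.39), Ier5 (-1.39), Dpm3 (-1.37), Sem1 (-1.33) and Mrfap1 (-1.27). Msrb2 (-1.07), Bex1 (-1.02), Coprs (-0.98), Snrpd1 (-0.95), Rnf113a2 (-0.73) and Fxyd6 (-0.71) were nearer to 0.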

How the results depend on the processing

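All 1939 called genes kept the sign of the interaction in every alternative in which they were tested. Fewer kept the call, with 1510 of them called under scaling without mitochondrial genes and 1146 to 1741 without 1 library. The number called was 1681 to 1979 over the pseudocount, filters, scalings, moderation, weights and voom. Scaling without mitochondrial genes gave 571 lower calls, and TPM scaling 39.7% of calls higher where the main scaling gave 48.4%. Leaving out 1 library gave 1166 to 2178 calls (594 to 990 higher, 552 to 1188 lower). It fell by over 1.5 times without C57 vehicle 1 (1248), 2 (1166) or 3 (1255) or C57 ASIV 1 (1218). Genes that share no 50-base word, fewer in number, gave 962 calls (452 higher, 510 lower). BTBR vehicle was the farthest group in 89.9 to 94.8% of called genes without 1 library and in 92.3 to 94.0% otherwise.

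Of 111 genes named, 102 were called, and 86 of these kept the call in every one of 26 alternatives that could test them. Reversals occurred in genes that were not called. Camk2b was at -0.0284 under TPM scaling, and without 1 library it ran from -0.046 to 0.132, below 0 without BTBR vehicle 1 (-0.0272) or 3. Camk2n2 ran from -0.279 to 0.106, above 0 without BTBR vehicle 3 alone. Ttr ran from -0.44 to 0.929, below 0 without BTBR ASIV 1 or BTBR vehicle 3 (-0.0059). The causes were not tested.

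Whether replicate numbers pair the libraries is not settled here. Of 18 pairs with the same number, 8 had deviations correlated above 0.1 (r = -0.172 to 0.279), and 2 libraries correlated best with their own number in all 3 other groups. Pairs with different numbers ran from r = -0.37 to 0.225. With a replicate block, 1862 genes were called (901 higher, 961 lower), 1707 of them shared with the fit without it. At this depth and with 3 libraries a group, genes with 1 FPKM in fewer than 3 libraries were not tested.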
